A study of Mus musculus with 6 samples.

Results

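The transcripts described here are those of 10 plasma membrane amino acid transporters, *Slc1a4*, *Slc1a5*, *Slc3a2*, *Slc7a1*, *Slc7a2*, *Slc7a5*, *Slc7a7*, *Slc7a11*, *Slc38a1* and *Slc38a2*, chosen by symbol from the 57010 genes of the count table. All 10 were among the 15903 genes with a total of at least 10 counts, which were the genes tested. They were measured in bone marrow-derived macrophages (BMDMs), macrophages grown in culture from marrow under the growth factor M-CSF, from 3 mice, each with 1 control and 1 NaCl library. All 6 libraries came from *Cx3cr1*GFP mice on the C57BL/6J background, which carry a GFP sequence in the *Cx3cr1* locus, and all cells were grown with 10 ng/ml M-CSF in VLE-RPMI medium with 10% FCS. After 7 days of culture, the paper describes that part of the medium, with the non-adherent cells, was replaced by fresh medium. The control cells are labelled unstim (n = 3), and the sources do not describe their handling apart. Whether these cells also received the fresh medium is not stated, and its part in the values was not tested. The NaCl cells were kept for 24 h with 62 mM of added NaCl (n = 3). Only adherent cells were sequenced, as polyadenylated RNA without strand information. The age and sex of the mice are not given in the sources used here. Cultured BMDMs are a model of macrophages outside a tissue. No mannitol library was analysed here, so a response to NaCl and a response to osmolarity cannot be told apart.

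Amino acid transporters of the plasma membrane differ in which amino acids they carry and in what drives them. Some use the sodium gradient to accumulate neutral amino acids, some exchange 1 amino acid for another, and the cationic carriers follow the membrane potential. The heavy chain encoded by *Slc3a2*, known as CD98hc, carries no amino acid by itself and brings light chains of the *Slc7* family to the membrane. In macrophages, arginine uptake feeds nitric oxide synthase and arginase, and cystine uptake feeds glutathione synthesis. Several of these genes are known targets of ATF4, a transcription factor that is made when amino acids run short, and *Slc38a2* is known to be induced in cells exposed to hypertonic medium, where neutral amino acids serve as compatible osmolytes.

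The promoters of 6 of the 10 genes were in the RefSeq promoter table, each as 250 bases before and 50 bases from the start site onward, on build GRCm38.p6. Shown are 1 window each of 4 genes, chosen because they hold a motif of the ATF4 or the antioxidant response. They are written 5′ to 3′ on the strand of the gene with the motif in capitals. The amino acid response element core was searched as TGATGNAA and the antioxidant response element core as TGACNNNGC, both on either strand.
*Slc1a4* promoter, chr11:20332664-20332963, minus strand: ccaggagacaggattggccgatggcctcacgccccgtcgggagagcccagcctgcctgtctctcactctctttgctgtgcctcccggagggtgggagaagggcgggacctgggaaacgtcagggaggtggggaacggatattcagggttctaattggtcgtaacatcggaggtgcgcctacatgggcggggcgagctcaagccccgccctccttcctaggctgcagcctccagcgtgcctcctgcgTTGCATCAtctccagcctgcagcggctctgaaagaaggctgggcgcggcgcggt
*Slc7a11* promoter, chr3:50443564-50443863, minus strand: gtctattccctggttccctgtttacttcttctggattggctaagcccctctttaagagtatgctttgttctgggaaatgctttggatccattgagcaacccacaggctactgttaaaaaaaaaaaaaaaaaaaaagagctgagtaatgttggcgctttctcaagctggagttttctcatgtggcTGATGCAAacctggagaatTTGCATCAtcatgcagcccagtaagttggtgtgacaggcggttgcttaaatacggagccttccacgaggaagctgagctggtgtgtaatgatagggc
*Slc7a1* promoter, chr5:148399855-148400154, minus strand: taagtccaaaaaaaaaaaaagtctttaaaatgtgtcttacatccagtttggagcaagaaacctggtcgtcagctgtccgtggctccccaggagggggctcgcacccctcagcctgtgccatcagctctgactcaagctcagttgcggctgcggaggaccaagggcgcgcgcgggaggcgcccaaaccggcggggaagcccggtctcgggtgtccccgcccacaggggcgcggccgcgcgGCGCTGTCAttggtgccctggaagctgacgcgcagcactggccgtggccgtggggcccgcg
*Slc38a2* promoter, chr15:96699679-96699978, minus strand: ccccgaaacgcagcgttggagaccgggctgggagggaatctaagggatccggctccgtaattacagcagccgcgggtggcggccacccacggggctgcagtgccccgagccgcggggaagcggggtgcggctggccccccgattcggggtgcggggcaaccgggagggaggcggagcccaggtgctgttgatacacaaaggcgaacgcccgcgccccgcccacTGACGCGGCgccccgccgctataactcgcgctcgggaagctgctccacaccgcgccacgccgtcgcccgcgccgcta

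With the start site as base 0, the amino acid response element core stood at bases -4 to 3 of the *Slc1a4* promoter, across the start site, and at bases -66 to -59 and -47 to -40 of the *Slc7a11* promoter. It was also in the table's promoters of *Slc7a7*, in 2 of the 5 alternative windows. Of all 32851 promoters, 3.97% held it, and 4.51% of all genes had such a promoter. The antioxidant response element core was at bases -11 to -3 of this *Slc7a1* promoter and at bases -27 to -19 of that of *Slc38a2*, and 12.4% of all promoters held it. The window of *Slc3a2* held neither core. The tonicity element, the binding motif of NFAT5, was in 4.96% of all promoters and in 0 of the 6 genes' windows. These matches describe the letters of short windows and not bound sites.

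The transporters did not respond to excess NaCl in 1 direction. *Slc1a4*, which encodes the exchanger ASCT1 of alanine, serine, cysteine and threonine, fell 4.59-fold. When the mouse was included as a replicate block, *Slc7a1*, *Slc7a5* and *Slc3a2* also fell, and *Slc7a2* and *Slc38a2* rose. *Slc1a5*, *Slc38a1*, *Slc7a7* and *Slc7a11* passed in neither fit. In edgeR's quasi-likelihood test of NaCl against control, with Benjamini-Hochberg adjustment over the 15903 genes and a threshold of 0.05, 1 of the 10 transporters was lower, against 0.176% of all genes tested. In the same test 0 were higher, against 0.478% of all genes, and at an unadjusted p-value under 0.05 there were 1 higher and 3 lower, against 6.63% and 6.01% of all genes. With the block, 4 were lower, against 4.3% of all genes, and 2 were higher, against 4.6%. DESeq2 without the block called 2 lower, against 0.975% of all genes, and 0 higher, against 1.54%. The median log2 fold change of the 10 was -0.20, and that of all genes tested was -0.01.

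**Figure D1:**
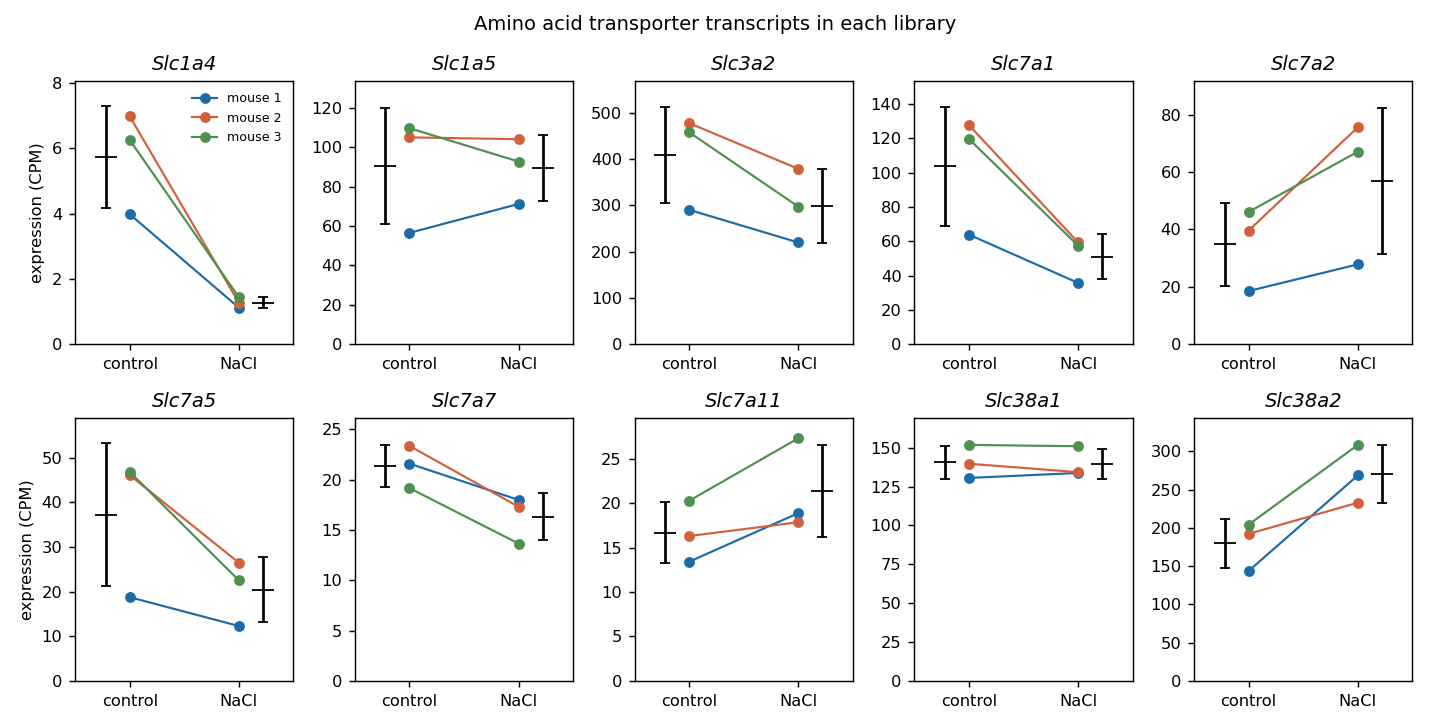
Expression in CPM (counts scaled to TMM-adjusted library size, on linear axes from 0) of each transporter in control and NaCl libraries, with 1 line per mouse and the mean with its SD in black beside each group. The groups did not overlap for *Slc1a4*, *Slc7a1*, *Slc7a7* and *Slc38a2*, and mouse 1 was lowest in both groups for *Slc1a4*, *Slc1a5*, *Slc3a2*, *Slc7a1*, *Slc7a2*, *Slc7a5* and *Slc38a1*.

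The values in single libraries did not overlap between the groups for 4 transporters. *Slc38a2* was higher in every NaCl than in every control library, as were 8.92% of all genes tested. *Slc1a4*, *Slc7a1* and *Slc7a7* were lower in every NaCl than in every control library, as were 10.1% of all genes. The depth behind these values differed, as the libraries held between 4088065 counts, in NaCl replicate 3, and 20123570 counts, in control replicate 3.

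*Slc1a4* (ENSMUSG00000020142.13, chromosome 11) was at 3.98, 6.97 and 6.25 CPM (counts scaled to library size) in control replicates 1, 2 and 3, and at 1.12, 1.27 and 1.44 CPM in NaCl replicates 1, 2 and 3. Every NaCl library lay below every control library, and the NaCl libraries were close together. They rest on few reads, 10, 14 and 6 counts, against 35, 77 and 124 counts in the control libraries. The mean fell from 5.74 ± 1.56 to 1.27 ± 0.16 CPM (SD, n = 3 each). The log2 fold change was -2.20 ± 0.32 (SE, adjusted p = 0.023 in edgeR's test), and with the block it was -2.17 ± 0.29 (SE, adjusted p = 1.27e-05). The log2 ratio of NaCl to control was -1.67 in mouse 1, -2.30 in mouse 2 and -1.99 in mouse 3. The call without the block was lost when control replicate 2 (adjusted p = 0.177 in edgeR's test), control replicate 3 (0.141), NaCl replicate 2 (0.0909) or NaCl replicate 3 (0.129) was left out, with log2 fold changes between -2.26 and -2.03 in these fits. With the block it held when both libraries of any 1 mouse were left out.

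*Slc1a5* (ENSMUSG00000001918.18, chromosome 7) encodes ASCT2, the exchanger of the same family that carries glutamine. It was at 56.5, 105 and 109.7 CPM in control replicates 1, 2 and 3 and at 71.2, 104 and 92.7 CPM in the NaCl replicates. Its groups overlapped, and its direction differed among mice. Its log2 fold change was -0.02 ± 0.24 (SE, 95% interval -0.56 to 0.52, adjusted p = 0.987 in edgeR's test), and the interval with the block was -0.23 to 0.28. A change like that of *Slc1a4* lies outside both intervals. As a ratio of levels per kilobase of exon within each library, *Slc1a4* to *Slc1a5* was 0.0749, 0.0706 and 0.0606 in control and 0.0167, 0.013 and 0.0165 in NaCl. The mean log2 ratio was lower in NaCl by a difference of -2.16 (exact two-sided permutation test, p = 0.1, adjusted over 4 ratios p = 0.133). With 3 libraries against 3, 0.1 is the smallest p this test can give.

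With the block, the cationic amino acid transporters moved in opposite directions. *Slc7a1* (ENSMUSG00000041313.15, chromosome 5) encodes CAT1, the widely expressed importer of arginine, lysine and ornithine, whose promoter is shown above. It was at 63.9, 128 and 119.8 CPM in control replicates 1, 2 and 3 and at 35.8, 59.4 and 57.5 CPM in the NaCl replicates. All NaCl libraries were below all control libraries, and replicate 1 was the lowest of each group. Mean expression was 104 ± 34.8 CPM in control cells and 50.9 ± 13.1 CPM after NaCl (SD, n = 3 each). The fitted log2 fold change was -1.04 ± 0.27 (SE, adjusted p = 0.149 in edgeR's test). It was -1.0 ± 0.12 (SE) with the block (adjusted p = 3.06e-06), where it held without any 1 mouse, and DESeq2 without the block also called it (adjusted p = 0.0147). Without control replicate 1, edgeR's test without the block called it as well (adjusted p = 0.0432).

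*Slc7a2* (ENSMUSG00000031596.16, chromosome 8) encodes CAT2, the cationic transporter known to be induced in activated macrophages. It was at 18.5, 39.6 and 46.1 CPM in control replicates 1, 2 and 3 and at 27.8, 75.6 and 67.1 CPM in the NaCl replicates. Both libraries of mouse 1 were low and the groups overlapped, while NaCl was above control within 3 of 3 mice, by log2 ratios of 0.58, 0.93 and 0.54. This was a log2 fold change of 0.69 ± 0.38 (SE, adjusted p = 0.501 in edgeR's test), and with the block 0.70 ± 0.13 (SE, adjusted p = 0.000683). The call with the block held without any 1 mouse. Of its exonic bases 6.95% overlap *Gm26584* on the opposite strand, and reads from those bases could not be assigned by strand.

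The balance between these carriers was then taken within each library. The level of *Slc7a1* per kilobase of exon was 2.73, 2.56 and 2.06 times that of *Slc7a2* in control replicates 1, 2 and 3, and 1.02, 0.622 and 0.679 times in the NaCl replicates. By this measure *Slc7a1* was above *Slc7a2* in every control library and below it in NaCl replicates 2 and 3. Which of them is higher in NaCl depends on the length used. Per kilobase of coding sequence, the NaCl means were 27.3 ± 7.03 CPM for *Slc7a1* and 26.3 ± 11.8 for *Slc7a2* (SD, n = 3 each). The mean log2 ratio differed by -1.69 between NaCl and control (exact two-sided permutation test, p = 0.1, adjusted over 4 ratios p = 0.133), and within mice 1, 2 and 3 by -1.42, -2.04 and -1.60. The summed level of the pair was 12.8 ± 4.54 CPM per kilobase in control and 10.6 ± 3.92 in NaCl (SD, n = 3 each), with overlapping groups.

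**Figure D2:**
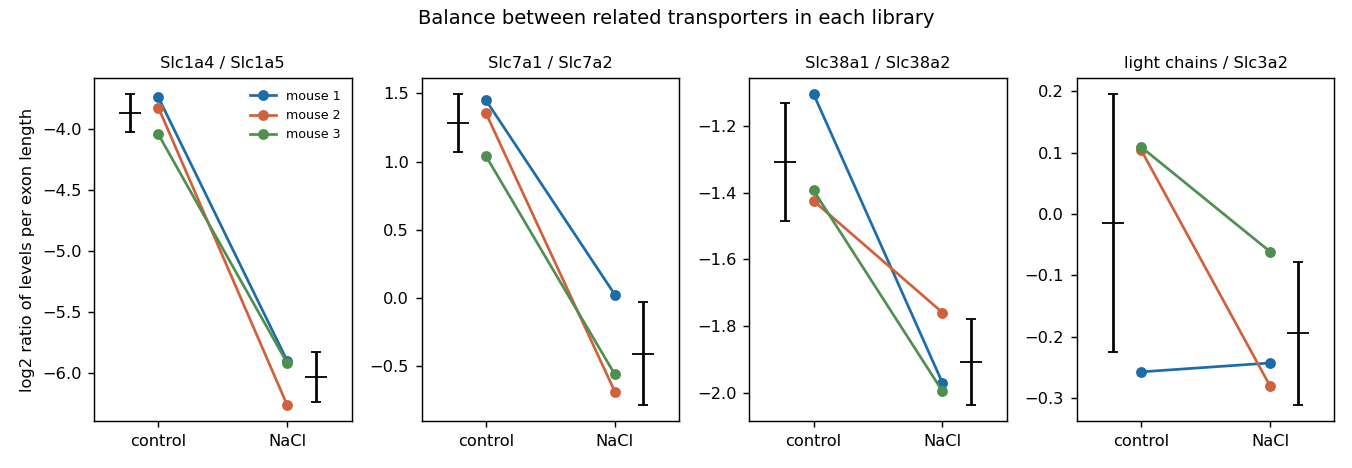
Log2 ratio of levels per kilobase of exon between related transporters in each library, in control and NaCl, with 1 line per mouse and the mean with its SD in black. The vertical axes differ between panels and do not start at 0. The groups did not overlap for *Slc1a4* to *Slc1a5*, *Slc7a1* to *Slc7a2* and *Slc38a1* to *Slc38a2*, and overlapped for the light chains to *Slc3a2*.

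*Slc3a2* (ENSMUSG00000010095.14, chromosome 19), the heavy chain, was the most abundant of the 10 per kilobase of exon in every library. It was at 290.2, 477 and 458 CPM in control replicates 1, 2 and 3 and at 219.7, 379 and 297 CPM in the NaCl replicates. NaCl was lower within 3 of 3 mice, while the groups overlapped. Mean expression was 408 ± 103 CPM in control cells and 298 ± 79.5 CPM after NaCl (SD, n = 3 each). The log2 fold change was -0.45 ± 0.23 (SE, adjusted p = 0.46 in edgeR's test), and it passed with the block at the same size (SE 0.12, adjusted p = 0.013 in edgeR). That call was lost without mouse 1 (log2 fold change -0.47, adjusted p = 0.176 in edgeR with the block) and without mouse 3 (log2 fold change -0.36, adjusted p = 0.1735).

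*Slc7a5* (ENSMUSG00000040010.11, chromosome 8) encodes LAT1, the light chain that exchanges large neutral amino acids such as leucine. It was at 18.8, 46.1 and 46.8 CPM in control replicates 1, 2 and 3 and at 12.3, 26.5 and 22.5 CPM in the NaCl replicates. Mouse 1 was low in both groups, and its control library lay below NaCl replicates 2 and 3. The log2 ratio of NaCl to control was -0.60 in mouse 1, -0.80 in mouse 2 and -1.05 in mouse 3. Its log2 fold change was -0.88 ± 0.36 (SE, adjusted p = 0.355 in edgeR's test), and -0.83 ± 0.14 (SE) with the block (adjusted p = 0.000263), where the call held without any 1 mouse.

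*Slc7a7* (ENSMUSG00000000958.11, chromosome 14) encodes y+LAT1, a light chain that exports cationic amino acids in exchange for neutral ones. It was at 21.6, 23.4 and 19.2 CPM in control replicates 1, 2 and 3 and at 18.0, 17.3 and 13.7 CPM in the NaCl replicates. The groups did not overlap, but they lay close together, and the log2 fold change of -0.37 did not pass without the block (SE 0.17, adjusted p = 0.4 in edgeR's test) or with it (adjusted p = 0.105). Of its exonic bases, 7.0% overlap *Oxa1l* on the opposite strand.

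*Slc7a11* (ENSMUSG00000027737.11, chromosome 3) encodes xCT, the light chain that imports cystine in exchange for glutamate. Of the promoters shown above, its own holds the amino acid response element core at 2 places. It was at 13.4, 16.3 and 20.3 CPM in control replicates 1, 2 and 3 and at 18.9, 17.9 and 27.3 CPM in the NaCl replicates. NaCl was higher within each mouse, with overlapping groups. The fitted log2 fold change was 0.33 ± 0.22 (SE, adjusted p = 0.591 in edgeR's test), and 0.35 with the block (adjusted p = 0.165). With the block and without mouse 2 it passed (adjusted p = 0.0364 in edgeR).

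The light chains *Slc7a5*, *Slc7a6*, *Slc7a7*, *Slc7a8* and *Slc7a11*, summed per kilobase of exon, were at 118 ± 42.7 CPM per kilobase in control and 73.9 ± 18.8 in NaCl (SD, n = 3 each). Relative to *Slc3a2* they were at 0.837, 1.07 and 1.079 in control and 0.845, 0.824 and 0.958 in NaCl. The difference in mean log2 ratio was -0.18 (exact two-sided permutation test, p = 0.3), less than the SD of 0.21 among the control libraries. Most of the counts in this sum came from *Slc7a8*, which encodes LAT2 and is not among the 10. It was at 251, 583 and 559.5 CPM in the control libraries and at 178, 309 and 289 CPM in the NaCl libraries, and fell with the block (log2 fold change -0.79, adjusted p = 8.44e-05 in edgeR) and not without it (adjusted p = 0.295).

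Of the sodium-coupled neutral amino acid transporters, *Slc38a2* rose with the block and *Slc38a1* did not pass. *Slc38a2* (ENSMUSG00000022462.8, chromosome 15) encodes SNAT2, which accumulates alanine, glutamine and other small neutral amino acids. It was at 144, 192 and 204 CPM in control replicates 1, 2 and 3 and at 269, 233 and 309 CPM in the NaCl replicates. Every NaCl library was above every control library, and mouse 1 showed the largest step, with log2 ratios of 0.90, 0.28 and 0.59 in mice 1, 2 and 3. Mean expression was 180.15 ± 32.0 CPM in control cells and 270.1 ± 37.8 CPM after NaCl (SD, n = 3 each). The log2 fold change was 0.58 ± 0.17 (SE, adjusted p = 0.183 in edgeR's test), and 0.59 ± 0.13 (SE) with the block (adjusted p = 0.00257). DESeq2 without the block gave an adjusted p of 0.0536. Without mouse 1 the value with the block was 0.45 and the call was lost (adjusted p = 0.188 in edgeR).

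*Slc38a1* (ENSMUSG00000023169.16, chromosome 15) encodes SNAT1, a glutamine carrier of the same family. It was at 130.5, 139.7 and 152 CPM in control replicates 1, 2 and 3 and at 134, 134 and 151 CPM in the NaCl replicates. These libraries lay within a narrow range, and the log2 fold change was -0.01 with a 95% interval of -0.29 to 0.27 (adjusted p = 0.985 in edgeR's test). With the block the interval was -0.25 to 0.23. The ratio of *Slc38a1* to *Slc38a2* per kilobase of exon was 0.465, 0.373 and 0.381 in control and 0.255, 0.295 and 0.251 in NaCl. The mean log2 ratio differed by -0.60 (exact two-sided permutation test, p = 0.1, adjusted over 4 ratios p = 0.133). The summed level of the pair was 28.5 ± 4.20 CPM per kilobase in control and 38.7 ± 4.77 in NaCl (SD, n = 3 each), and its NaCl libraries lay above its control libraries.

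**Figure D3:**
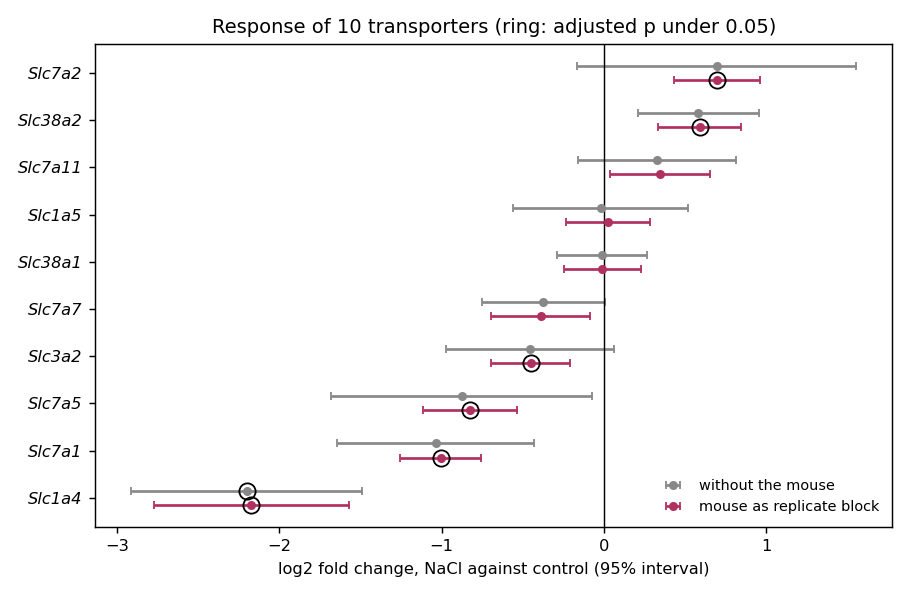
Log2 fold change of each transporter, NaCl against control, without the mouse (grey) and with it as a replicate block (red), with 95% intervals from edgeR and a ring where the adjusted p was under 0.05. Only *Slc1a4* carries a ring in grey, and 6 genes carry one in red, from -2.17 for *Slc1a4* to 0.70 for *Slc7a2*.

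Levels between genes were compared per kilobase of exon. In control the order of the mean levels, from high to low, was *Slc3a2*, *Slc1a5*, *Slc38a2*, *Slc7a5*, *Slc7a1*, *Slc38a1*, *Slc7a7*, *Slc7a2*, *Slc1a4* and *Slc7a11*. *Slc3a2* was at 116 ± 29.2 CPM per kilobase (SD, n = 3) and stood clear of *Slc1a5* at 21.7 ± 7.05. At the low end, *Slc1a4* was at 1.46 ± 0.398 and *Slc7a11* at 1.197 ± 0.247 CPM per kilobase. Neighbours whose libraries overlapped were *Slc1a5* and *Slc38a2*, *Slc7a5* and *Slc7a1*, *Slc7a1* and *Slc38a1*, and *Slc1a4* and *Slc7a11*. In NaCl the order was *Slc3a2*, *Slc38a2*, *Slc1a5*, *Slc38a1*, *Slc7a2*, *Slc7a5*, *Slc7a7*, *Slc7a1*, *Slc7a11* and *Slc1a4*. *Slc3a2* was at 84.6 ± 22.5 CPM per kilobase there, *Slc38a2* at 30.6 ± 4.27, *Slc7a11* at 1.53 ± 0.372 and *Slc1a4* at 0.325 ± 0.0408. Each neighbouring pair from *Slc38a1* down to *Slc7a1* overlapped in NaCl. *Slc38a2* stood clear of *Slc1a5* in NaCl and not in control, and *Slc1a4* stood clear below *Slc7a11* in NaCl and not in control. The order depends on the length used, since per kilobase of coding sequence *Slc38a1* (95.5 ± 7.24) came above *Slc1a5* (54.3 ± 17.7) in control. The top rank of *Slc3a2* in NaCl depends on it too. Per kilobase of coding sequence, *Slc38a2* (178.65 ± 25.0) and *Slc3a2* (176.1 ± 46.9) were about level in NaCl. In control, *Slc3a2* (241 ± 60.7) stayed above *Slc38a2* (119 ± 21.2) by that measure.

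Mouse 1 stood apart for most of these genes. The level of mouse 1 was below the mean of mice 2 and 3, on the log2 scale, in both groups for 8 of the 10 transporters (80%), against 33% of all genes tested. The difference was largest for *Slc7a5*, at -1.30 in control and -0.98 in NaCl, and for *Slc7a2*, at -1.20 and -1.35. The exceptions were *Slc7a7* in both groups, at 0.03 and 0.22, and *Slc38a2* in NaCl, at 0.0032. Over the 10 genes the median was -0.70 in control and -0.35 in NaCl. This was noticed after the values were seen, and what differs in mouse 1 was not tested.

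Transcripts whose log2 CPM varied most like that of each called transporter over the 6 libraries were sought among 9924 genes with a mean of at least 50 counts. These libraries share 3 mice and 2 treatments, so the coefficients describe a pattern and are given without a test. *Slc1a4* was most like *Asns*, the asparagine synthetase gene (Pearson r = 0.999), and then *Hmga2* (0.994). *Slc7a1* was most like *Psat1*, a gene of serine synthesis (0.999), and *Plau* (0.998). The nearest to *Slc3a2* were *Tom1* (0.993) and *Ccdc134* (0.992), and to *Slc7a5* they were *Zdhhc6* (0.998) and *Itgb2* (0.996). *Slc7a2* varied most like *Mrpl49* (0.998) and *Dut* (0.997), and *Slc38a2* most like *Usp25* (0.987) and *Ctdnep1* (0.986). Among the transporters themselves, *Slc3a2* and *Slc7a5* were the closest pair (0.984). A coefficient does not give the size of a change. With the block, log2 fold changes were -2.04 for *Asns* and -0.83 for *Hmga2*, beside -2.17 for *Slc1a4*. For *Psat1* and *Plau* they were -0.73 and -1.01 (*Slc7a1* -1.0045). For *Tom1* and *Ccdc134* they were -0.29 and -0.26 (*Slc3a2* -0.45), and for *Zdhhc6* and *Itgb2* both were -0.19 (*Slc7a5* -0.83). For *Mrpl49* and *Dut* they were 0.11 and 0.496 (*Slc7a2* 0.696), and for *Usp25* and *Ctdnep1* 0.24 and 0.20 (*Slc38a2* 0.59).

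The genes around these transporters were described from 3 further lists. Of 48 other genes listed as amino acid transporters, 31 were tested, and edgeR's test called 3 higher and 0 lower, against 0.478% and 0.176% of all genes. At an unadjusted p-value under 0.05 there were 6 higher and 2 lower, against 6.63% and 6.01% of all genes, and DESeq2 called 4 higher and 0 lower, against 1.54% and 0.975%. With the block, 6 were higher and 2 lower, against 4.6% and 4.3%, and the median log2 fold change without it was 0.08. Without the block, the 3 higher calls became 1 when any library other than NaCl replicate 1 was left out, and 2 without that library. *Slc6a12*, the betaine transporter known for its response to hypertonic medium, rose from 0.424 ± 0.0532 to 71.1 ± 30.8 CPM (SD, n = 3 each). *Slc36a2*, a proton-coupled carrier of glycine and proline, rose from 0.899 ± 0.214 to 3.50 ± 0.685 CPM. *Slc6a13*, a carrier of GABA, betaine and taurine, was called higher on few reads, with at most 0.202 CPM in a control library and 1.36 to 1.90 CPM in NaCl. With the block, *Slc7a4* rose from 4.74 ± 0.764 to 11.9 ± 3.63 CPM, *Slc43a3* from 26.9 ± 3.56 to 40.1 ± 10.5 CPM, and *Slc7a6*, a light chain, from 34.3 ± 5.73 to 47.0 ± 14.3 CPM. *Slc7a4* and *Slc43a3* are members of the listed gene families, and amino acid transport by their products is not taken as established here. Also with the block, *Slc43a2*, a carrier of large neutral amino acids, fell from 594 ± 51.1 to 446 ± 41.0 CPM, as did *Slc7a8*.

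Of 26 genes listed for the amino acid response, *Atf4*, *Eif2ak4* and *Eif2s1* among them, 25 were tested. In edgeR's test 6 were lower and 0 higher, against 0.176% and 0.478% of all genes. At an unadjusted p-value under 0.05 there were 15 lower and 1 higher, against 6.01% and 6.63% of all genes, and DESeq2 called 10 lower and 0 higher, against 0.975% and 1.54%. With the block 15 were lower and 1 was higher, against 4.3% and 4.6%, and the median log2 fold change without it was -0.75, beside -0.01 for all genes. Without the block, the 6 lower calls became 1 without control replicate 2 or 3, 0 without NaCl replicate 2 or 3, 7 without NaCl replicate 1 and 9 without control replicate 1. *Asns* fell from 110.0 ± 34.4 to 26.0 ± 2.60 CPM and *Phgdh*, of serine synthesis, from 40.3 ± 10.8 to 10.9 ± 2.40 CPM. *Trib3*, a pseudokinase, fell from 20.7 ± 8.43 to 4.34 ± 0.0249 CPM. *Chac1*, which degrades glutathione, fell from 8.66 ± 3.96 to 1.61 ± 0.222 CPM, *Atf5*, a transcription factor, from 44.2 ± 5.82 to 19.3 ± 4.47 CPM and *Eif4ebp1*, a repressor of translation, from 74.2 ± 13.2 to 38.0 ± 5.32 CPM. Other genes of the list passed in edgeR with the block and not without it. Those named by the rule, which DESeq2 without the block called as well, were *Mthfd2*, from 89.5 ± 23.5 to 43.2 ± 9.27 CPM, *Aldh18a1*, from 53.1 ± 12.6 to 28.0 ± 2.79 CPM, *Psat1*, from 146 ± 36.1 to 87.3 ± 16.0 CPM, and *Atf4* itself, from 264 ± 55.9 to 156 ± 19.6 CPM. The 1 gene higher with the block, *Cebpb*, named after its values were seen, had a mean of 49.8 ± 11.7 CPM in control cells and of 81.1 ± 23.2 CPM after NaCl. In the promoter table, 7 of the 25 genes of this list (28%) held the amino acid response element core, against 4.51% of all genes, and 0 of 38 genes of the other transporters did. The antioxidant response element core was in 7 of the 25 (28%) and 5 of the 38 (13.2%), against 14% of all genes. The tonicity element was in 1 of the 25 (4%) and 6 of the 38 (15.8%), against 5.74% of all genes.

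Of 28 genes of enzymes that use the imported amino acids, 24 were tested, and 0 were called in either direction by edgeR's test or by DESeq2, where 1 higher and 4 lower had an unadjusted p-value under 0.05, against 6.63% and 6.01% of all genes. With the block 0 were higher and 2 lower, against 4.6% and 4.3%. *Gclm*, the modifier subunit of the enzyme that starts glutathione synthesis, fell with the block from 319.7 ± 119.5 to 199.8 ± 61.8 CPM. *Ggt5*, a gamma-glutamyltransferase, fell with the block from 2.88 ± 0.91 to 1.16 ± 0.559 CPM. The median log2 fold change of the list was -0.004, close to that of all genes. Of the arginine users, *Nos2*, the gene of inducible nitric oxide synthase, had a total of 8 counts and was not tested. *Arg1*, of arginase, had a total of 273 counts and was not called. These genes were named after their values were seen.

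**Figure D4:**
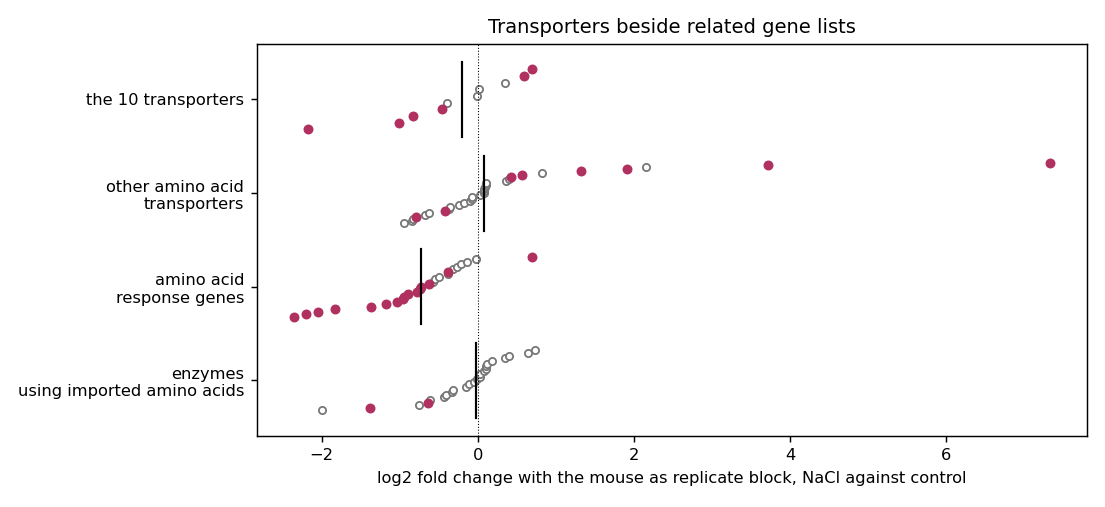
Log2 fold change with the mouse as a replicate block for the tested genes of each list, 1 point per gene, filled where the adjusted p in edgeR was under 0.05, with a black bar at the median of the list. The medians were -0.20 for the 10 transporters, 0.08 for the other amino acid transporters, -0.73 for the amino acid response genes and -0.03 for the enzymes.

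The identity of the cells was checked with marker genes. All 9 macrophage markers were detected, with a summed level of 15518 to 17151 CPM in control and 24591 to 31974 CPM in NaCl, and *Lyz2* and *Cd14* among them passed the threshold. *Lyz2* alone made up most of this sum, at 9219 to 10194 CPM in control and 16456 to 23249 CPM in NaCl, and the other 8 markers summed to 6299 to 7111 CPM in control and 7727 to 8726 CPM in NaCl. With the block, 3 of the 9 were higher, *Lyz2*, *Cd14* and *Csf1r*, and 1 was lower, *Mertk*, against 4.6% and 4.3% of all genes. Of 42 markers of 6 other cell types, 24 were tested, and 0 were higher and 2 lower with the block, against the same shares. The 2 lower genes were among the 10 neutrophil markers. The neutrophil markers summed to 267 to 566 CPM in control and 291 to 408 CPM in NaCl, and the dendritic cell markers to at most 4.80 CPM in any library. *Pax5* and *Cd3e* had no count in any library. In bulk RNA, fewer cells of a type and less RNA per cell cannot be told apart, and the part of these markers in the transporter values was not tested.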

How the data were processed

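RNA from BMDMs of 3 mice, each as control and after NaCl, was sequenced as 75 base single-end reads. Per the submitters' processing notes the authors used CASAVA 1.8.2, fastp 0.20.0, STAR 2.7.10b, SAMtools 1.16.1 and, in R 4.3.1, DESeq2 1.40.2. The authors deposited, for each gene, the number of reads that STAR had counted on it, as a raw count. They also deposited a normalized signal, in which each count had been divided by 1 DESeq2 size factor per library, and only the raw counts were tested here. The methods name mm10 and an annotation of another build, so genes are placed by chromosome only.

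The 15903 genes with 10 or more counts in total were tested in edgeR 4.0.16 (TMM, glmQLFit and glmQLFTest), with the Benjamini-Hochberg adjustment and a threshold of 0.05. The study's design names no further term, so the mouse was left out there and added as a replicate block in a second fit. Pairing was checked before the calls of both fits were compared. Each group holds mice 1, 2 and 3 by the labels. Across genes, the deviations from the group mean in libraries of 1 mouse correlated at 0.43, 0.15 and 0.22, where other pairs lay between -0.35 and 0.12. Each pair from 1 mouse lay above all other pairs, but for mouse 2 only narrowly, at 0.151 against 0.124. The block takes up what the libraries of 1 mouse share. Whether that is the mouse or a shared handling of its libraries cannot be told apart.

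Exon lengths, overlaps and 75-base windows shared with other genes came from GENCODE M21. Lengths were found for 15484 of the 15903 genes, and overlaps and windows were sought for the 10 transporters only. Ratios used levels per exon length and an exact permutation test over libraries. Tools were R 4.3.3, DESeq2 1.42.0, Python 3.11.15, pandas 2.3.3, numpy 2.4.6 and scipy 1.17.1. The rule for named genes took all 10 transporters, genes of other lists only where past the threshold in either fit (at most 10 a list), and the 2 transcripts most like each called transporter. The transporters and lists were chosen with earlier results of these data known. Alternatives were DESeq2, the block in both tools, median-ratio size factors, a minimum total count of 1, filterByExpr, coding length and leaving out each library or mouse. The planned comparison of protein sequences was not run, and the promoter table held no entry for 4 of the 10 genes.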

Additional observations from a re-analysis of the deposited data

How the results depend on the processing

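The directions of 8 of the 10 transporters were the same in all 15 alternatives to edgeR's test without the block. The other 2 had log2 fold changes near 0 whose sign turned. *Slc1a5* turned positive with the replicate block (0.023), in DESeq2 with the replicate block (0.0341), with the block without mouse 2 (0.048) and without mouse 3 (0.162), and lay between -0.261 and 0.156 when single libraries were left out. *Slc38a1* turned positive under filterByExpr (0.0030) and with the replicate block without mouse 2 (0.0226), and lay between -0.0698 and 0.0575 when single libraries were left out.

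The number of calls moved more, as it did over all genes. Of all genes tested, 76 were higher and 28 lower without the block, 732 and 684 with it, 245 and 155 in DESeq2, 452 and 354 in DESeq2 with the replicate block and 362 and 300 at a minimum total count of 1. With the block these were 469 and 417 without mouse 1, 758 and 661 without mouse 2, and 715 and 585 without mouse 3, and without it from 8 to 123 and from 0 to 46 when single libraries were left out. Of the 10 transporters, 0 were higher and 1 lower. With the replicate block this became 2 and 4, in DESeq2 0 and 2, in DESeq2 with the replicate block 2 and 4, and at a minimum total count of 1, 2 and 3. With the block it was 1 and 3 without mouse 1, 3 and 4 without mouse 2, and 2 and 3 without mouse 3, and from 0 to 0 higher and 0 to 2 lower when single libraries were left out without the block. Of the other amino acid transporters, 3 were higher and 0 lower. With the replicate block this became 6 and 2, in DESeq2 with the replicate block 4 and 2, and at a minimum total count of 1, 4 and 1. With the block it was 5 and 2 without mouse 1, 5 and 3 without mouse 2, and 6 and 1 without mouse 3, and from 1 to 2 higher when single libraries were left out. Of the amino acid response genes, 0 were higher and 6 lower. With the replicate block this became 1 and 15, in DESeq2 0 and 10, in DESeq2 with the replicate block 1 and 12, and at a minimum total count of 1, 1 and 13. With the block it was 1 and 14 without mouse 1, 1 and 15 without mouse 2, and 1 and 13 without mouse 3, and from 0 to 9 lower when single libraries were left out. Of the enzymes, 0 were higher and 0 lower. With the replicate block this became 0 and 2, in DESeq2 with the replicate block 0 and 1, and at a minimum total count of 1, 0 and 1. With the block it was 0 and 1 without mouse 1, 1 and 1 without mouse 2, and 2 and 2 without mouse 3. The causes were not tested. The replicate block gave a sign-flip p of 0.25 for 3 of the ratios and 0.5 for the light chains (exact permutation test). With 3 mice, 0.25 is the smallest p this test can give. The differences in the ratios kept their direction without any 1 library. Coding length cannot change the difference for a ratio of 1 gene to 1 other, since it scales every library alike. For the light chains the difference was -0.16 under coding length, beside -0.18 under exon length. Depth limits *Slc1a4* most, which had 6 counts in NaCl replicate 3.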
